A study of Mus musculus with 8 samples.

Results

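Primordial germ cells are the founders of eggs and sperm. In the mouse they are set aside from the epiblast when bone morphogenetic protein signals from the neighbouring extraembryonic tissue switch on a small group of transcription factors, and after headfold stages they move into the hindgut on their way to the genital ridges. The genes described here are 8 that specify or mark these cells: the transcriptional regulators *Prdm1* (BLIMP1), *Prdm14* and *Tfap2c* (AP2 gamma), the chromatin-binding factor *Dppa3* (STELLA), the RNA-binding proteins *Nanos3* and *Dnd1*, the membrane protein *Ifitm3* (FRAGILIS), and *Kit*, the receptor for KIT ligand. They were chosen by name: every non-control probe whose RefSeq transcript carries one of these symbols was taken, which gave 8 probes, 1 for each gene, of the 55681 different probes on the array.

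The arrays were hybridised with RNA from 8 mouse embryos collected 8.5 days after the plug (E8.5), on a mixed C57bl6/129 background. All 8 embryos were wild-type for *Eed*, which encodes a subunit of the Polycomb repressive complex PRC2, and all had wild-type mothers. Their fathers differed: 4 embryos were sired by *Eed* wt/wt males and 4 by *Eed* hypo/wt males, which carry 1 copy of the hypomorphic allele Eedl7Rn5-1989SB, a point mutation. The comparison asks whether the father's genotype shows in offspring that did not inherit the allele. According to the methods, the colony also carried a randomly integrated *Oct4*GFP transgene. The labels give 2 females and 2 males per father group, and sex-linked probes bore out the label in 8 of 8. All arrays of one group lay on one slide and those of the other on a second, so an effect of the slide and one of the father cannot be told apart. The number of sires is given differently in different places of the study, and 3 of the 4 embryos of wild-type fathers share the first part of their code, so littermates or shared sires may be among them and p-values measure the spread between these embryos only.

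Germ cells are a very small part of an embryo at this age, and several of the genes are also used elsewhere, for example *Kit* in blood-forming and pigment cell lineages, *Tfap2c* in surface ectoderm and trophoblast, and *Prdm1* in a range of embryonic tissues. In RNA from whole embryos, fewer cells of a type and less RNA per cell cannot be told apart. Markers of the embryo proper were well above background in all 8 embryos for 8 of 8 genes (among them *Tbx6* of the presomitic mesoderm and *Nkx2-5* of the heart), and so were 8 of 8 genes of the extraembryonic endoderm, such as *Afp*, *Ttr* and *Rbp4*, which yolk sac and visceral endoderm make in large amounts. Of 8 trophoblast and decidua markers, 6 were well above background in every embryo, whereas the spongiotrophoblast marker *Tpbpa* was above background in 0. Between 29203 and 39530 probes per array were well above background, most in wild-type father replicate 1 and heterozygous father replicate 3. On these 2 arrays the lower quartile of all probes was also highest (-5.83 and -4.83, against -7.62 to -6.57 on the other 6, in log2 signal relative to the array's 75th percentile), so the father and sex differences of the dimmest of the 8 genes, *Prdm14* and *Dppa3*, are given with and without them.

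The germ cell genes were measurable in whole embryos. 7 of the 8 probes were well above background on all 8 arrays, and *Dppa3* was so in 6 embryos. All 8 passed the filter for testing. Levels below are log2 signals after subtraction of each array's 75th percentile, so that 0 is the level of a probe brighter than 3 in 4 of its array. They compare embryos for one probe, not one gene with another.

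**Figure D1:**
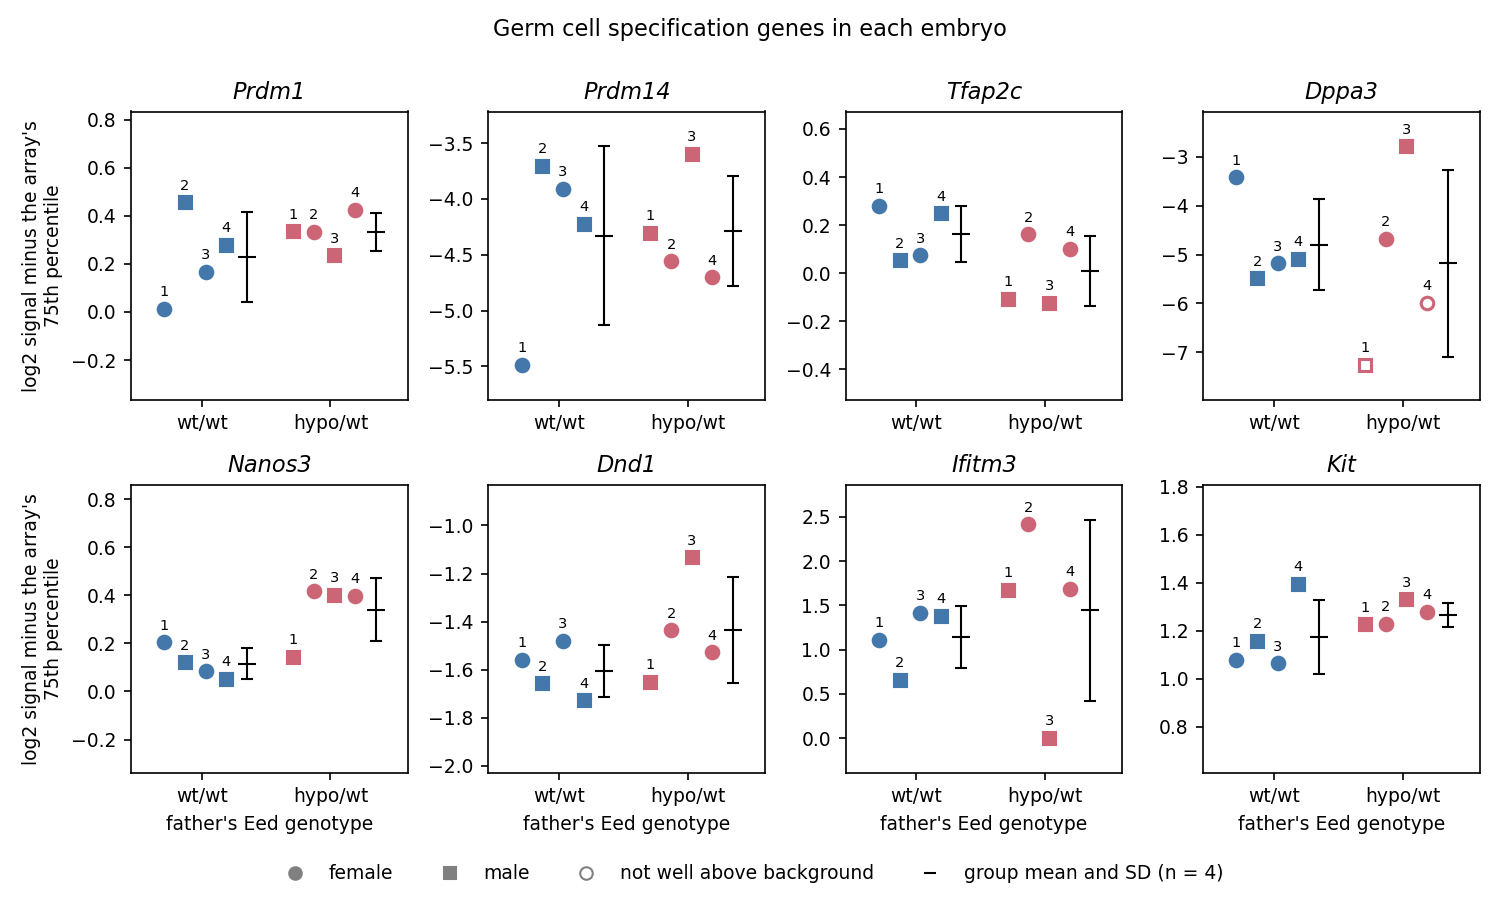
Log2 signal of each gene in each embryo, relative to the 75th percentile of its array (vertical axis, with a different range in each panel), by the father's *Eed* genotype. Circles are females and squares males, numbers are replicates, open symbols were not well above background, and bars give the group mean and SD (n = 4). The groups overlap for all 8 genes, and *Dppa3* in heterozygous father replicates 1 and 4 is the only gene with open symbols.

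None of the 8 genes passed the test of the father's genotype. At an adjusted p under 0.01 and a change of 2-fold or more, 0 of 8 were called, beside 0 of all 33093 tested probes (0%), and the smallest adjusted p among the 8 was 1.00 (limma, Benjamini-Hochberg). At an unadjusted p under 0.05 there was 1 of 8, *Nanos3*, beside 4.4% of all tested probes (1455). The values of the father groups overlapped for 8 of 8, where 3.22% of all tested probes had groups that did not overlap. With heterozygous fathers 6 genes had a higher mean and 2 a lower one, where 50.7% of all tested probes were higher. The median log2 difference was 0.10 against 0.003 over all tested probes. However, *Prdm1*, *Prdm14* and *Kit* turned lower once each array was centred on its own median, a change that took the median difference of all tested probes to -0.10.

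**Figure D2:**
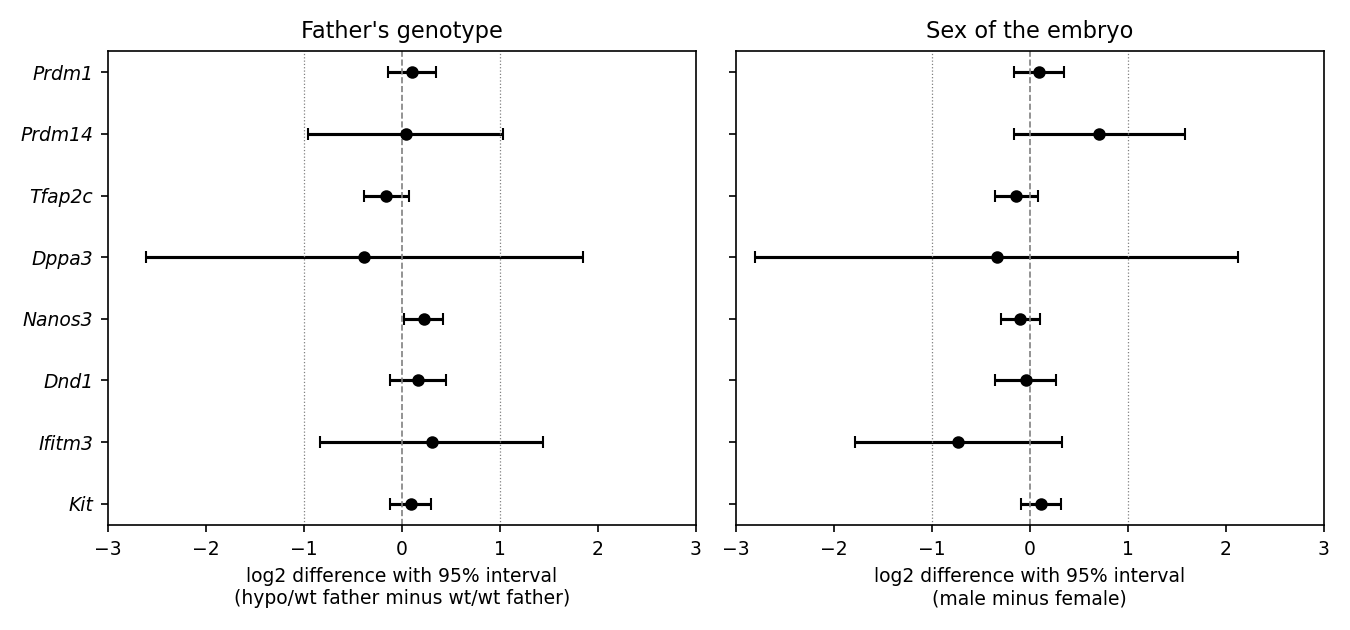
Log2 difference of each gene with its 95% interval from limma (horizontal axis), for heterozygous minus wild-type fathers on the left and for male minus female embryos on the right. The dashed line marks no difference and dotted lines a 2-fold change. Intervals are narrow for *Kit*, *Nanos3*, *Prdm1*, *Tfap2c* and *Dnd1* and reach past 2-fold in at least one direction for *Prdm14*, *Dppa3* and *Ifitm3*.

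*Prdm1*, a zinc finger repressor and the earliest known determinant of the lineage, had log2 signals of 0.01, 0.46, 0.17 and 0.28 in wild-type father replicates 1 to 4, and 0.34, 0.33, 0.24 and 0.43 in heterozygous father replicates 1 to 4. The whole range of the heterozygous fathers' embryos lay within that of the others. The group means were 0.23 ± 0.19 and 0.33 ± 0.08 (SD, n = 4), a difference of 0.10 with a 95% interval of -0.14 to 0.35, that is, between 0.907-fold and 1.27-fold.

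*Tfap2c*, an AP-2 family factor that acts downstream of BLIMP1, had 0.28, 0.05, 0.07 and 0.25 with wild-type fathers and -0.11, 0.16, -0.12 and 0.10 with heterozygous fathers. The 2 lowest embryos were the males of heterozygous fathers, and the females of that group lay among the embryos of wild-type fathers. The difference was -0.16, with a standard error of 0.10 and an interval of -0.39 to 0.07.

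*Prdm14*, the other PR domain regulator of the lineage, was dim. Its log2 signals were -5.49, -3.70, -3.91 and -4.22 with wild-type fathers and -4.30, -4.56, -3.59 and -4.70 with heterozygous fathers. The lowest embryo was wild-type father replicate 1 and the highest heterozygous father replicate 3, the same embryos whose arrays stood apart. The difference of 0.04 (95% interval -0.95 to 1.03) turned to -0.58 when both were left out, where limma gave 0.0169 as the unadjusted and 0.640 as the adjusted p. In fold units the interval over all 8 embryos ran from 0.517 to 2.05.

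*Dppa3*, which protects DNA methylation in the early embryo and is one of the classical markers of specified germ cells, varied more than any of the other 7. The log2 signals were -3.42, -5.49, -5.18 and -5.09 with wild-type fathers and -7.26, -4.68, -2.79 and -5.99 with heterozygous fathers, and the first and last of the heterozygous fathers' embryos were not well above background. Heterozygous father replicate 1 lay only 0.18 above the median of the negative control spots on its array. The brightest embryos, heterozygous father replicate 3 and wild-type father replicate 1, came from the arrays with the most detected probes. The SD over the 8 embryos was 1.41, and 97.2% of all tested probes had a smaller one. The difference between the father groups was -0.38 with an interval of -2.61 to 1.85, from 0.164-fold to 3.60-fold, and it was -0.72 without these 2 embryos, 0.31 without heterozygous father replicate 1 and -1.18 without heterozygous father replicate 3. The part of the arrays' dim-probe signal in the *Dppa3* values was not tested.

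**Figure D3:**
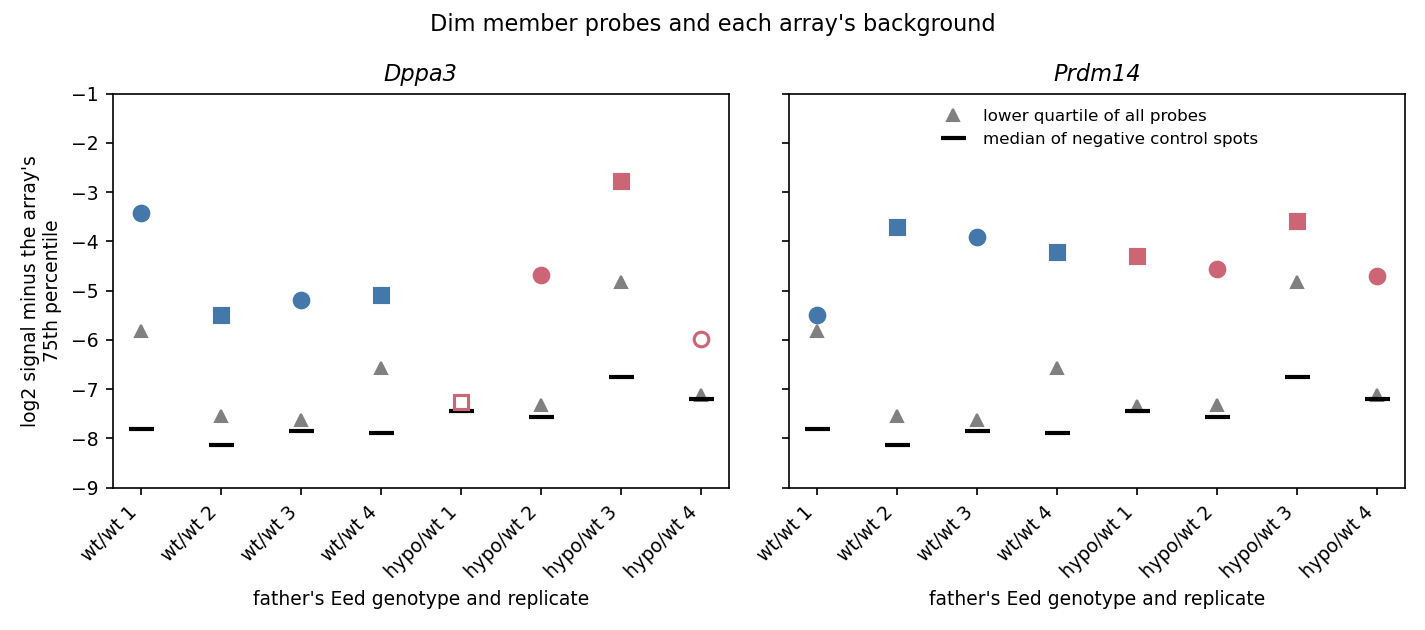
Log2 signal of *Dppa3* and *Prdm14* in each embryo (coloured symbols, blue for *Eed* wt/wt and red for *Eed* hypo/wt fathers, circles female, squares male, open where not well above background), with the lower quartile of all probes (triangles) and the median of the negative control spots (bars) on the same array. *Dppa3* lies highest on the 2 arrays where the lower quartile is highest, and close to the negative controls in heterozygous father replicate 1, while *Prdm14* comes near the lower quartile in wild-type father replicate 1.

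Among named genes on the array, the 3 whose embryo-to-embryo pattern lay closest to that of *Dppa3*, by the mean absolute difference of centred log2 signals over 8 embryos and 15378 genes, were *Pxt1* (0.21), *Stpg3* (0.22) and *Tyrobp* (0.23). Each was brightest in heterozygous father replicate 3 and dimmest in heterozygous father replicate 1, as *Dppa3* was, which follows from choosing them by likeness to it. They were well above background in 6, 4 and 6 embryos, so these too were dim probes.

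Promoters of 4 of the 8 genes (*Prdm1*, *Nanos3*, *Ifitm3* and *Kit*) were matched in RefSeq's annotation of build GRCm38.p6. The 2 shown belong to the gene with the smallest unadjusted p between father groups and to the one with the widest spread among those detected in all embryos. Each is the 250 bases before the annotated start, 5′ to 3′ on the gene's own strand, which is the minus strand for both, at chr8:84176553-84176802 for *Nanos3* and at chr7:141010745-141010994 for *Ifitm3*. Capitals mark matches on either strand to the GC box GGGCGG, the TATA box TATAAA, the AP-2 site GCCNNNGGC or the interferon response element GAAANNGAAA.

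Nanos3: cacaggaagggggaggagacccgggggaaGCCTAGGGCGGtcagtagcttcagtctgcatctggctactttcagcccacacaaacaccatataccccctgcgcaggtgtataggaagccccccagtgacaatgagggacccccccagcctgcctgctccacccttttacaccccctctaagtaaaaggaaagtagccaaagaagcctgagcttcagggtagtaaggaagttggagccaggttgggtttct

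Ifitm3: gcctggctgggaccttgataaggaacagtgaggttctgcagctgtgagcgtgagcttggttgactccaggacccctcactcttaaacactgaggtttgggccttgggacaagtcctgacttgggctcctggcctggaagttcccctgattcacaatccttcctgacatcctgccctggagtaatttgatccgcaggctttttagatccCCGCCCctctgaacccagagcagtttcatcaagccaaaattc

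In *Nanos3* an AP-2 match that begins at position -221 from the start overlaps a GC box that begins at -216. In *Ifitm3* a GC box, on the opposite strand, begins at -42, and 2 interferon response elements follow the start, at bases 3 and 20 of the transcript. Counted in windows of 300 bases (250 before the start and 50 after), the GC box occurred in 35.7% of the 32851 promoters in the table, the AP-2 site in 16.6%, the TATA box in 13.6% and the interferon element in 3.44%. *Kit* held 1 GC box and 1 AP-2 site, and the *Prdm1* window held 0 matches to any of the 4. A match describes the letters and not binding, which these arrays do not measure.

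*Nanos3* encodes an RNA-binding protein needed for the survival of migrating germ cells. Its log2 signals were 0.20, 0.12, 0.09 and 0.05 with wild-type fathers and 0.14, 0.42, 0.40 and 0.40 with heterozygous fathers. The embryos of wild-type fathers formed a tight group, 3 embryos of heterozygous fathers lay clearly above it, and the first lay inside it. The group means were 0.12 ± 0.07 and 0.34 ± 0.13 (SD, n = 4). The difference of 0.22 (standard error 0.08) equals 1.17-fold, with an interval from 1.02-fold to 1.34-fold (unadjusted p = 0.0307, adjusted p = 1.00, limma). With an embryo left out, the unadjusted p ranged from 0.00547 without heterozygous father replicate 1 to 0.0782 without heterozygous father replicate 2, and stayed under 0.05 in 2 of the 8 fits. *Nanos3* was higher with heterozygous fathers in both sexes, by 0.26 between females and by 0.19 between males.

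*Dnd1*, which binds germ cell mRNAs and shields them from microRNAs, had -1.56, -1.66, -1.48 and -1.73 with wild-type fathers and -1.65, -1.44, -1.13 and -1.53 with heterozygous fathers. A single embryo, heterozygous father replicate 3, lay above the others. The difference was 0.17 with an interval of -0.12 to 0.45, and 0.07 without that embryo.

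*Ifitm3*, an interferon-inducible membrane protein that early germ cells carry on their surface, gave the widest spread among the genes detected in every embryo. The log2 signals were 1.11, 0.66, 1.41 and 1.38 with wild-type fathers and 1.68, 2.42, 0.002 and 1.69 with heterozygous fathers. The lowest and the highest of all 8 embryos both had heterozygous fathers, and they differed 5.33-fold. The probe was printed 10 times on each array, and the SD of its spots on one array lay between 0.03 and 0.08, against 0.73 between embryos, a spread that 88.7% of tested probes did not reach. Spots of one array share what affects that array as a whole, which their SD does not measure. The group means were 1.14 ± 0.35 and 1.45 ± 1.02 (SD, n = 4), and the difference was 0.30 with an interval of -0.84 to 1.44. It depended on heterozygous father replicate 3, without which it was 0.79 (limma, unadjusted p = 0.0202, adjusted p = 0.528). In that fit 3095 of all tested probes had an unadjusted p under 0.05, against 1455 with all 8 embryos. The difference also depended on heterozygous father replicate 2, without which it was -0.02. In replicate 3, 2 of 6 trophoblast and decidua markers were at their lowest (*Prl3d1* at -2.99 and *Prl8a2* at -2.61). Another, *Elf5*, was at its highest (-2.57). A second probe of *Prl3d1* did not repeat the low value, at -4.34 there and from -5.12 to -3.71 over all embryos. The part of these markers in the *Ifitm3* value was not tested. The array of this embryo also stood apart, with the highest lower quartile of all probes (-4.83) and the highest negative control median (-6.74). The part of the array in the *Ifitm3* value was not tested either.

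The paralogues measured at high signal spread less. *Ifitm1* had 4.18 ± 0.24 and 4.27 ± 0.21 (SD, n = 4) with wild-type and heterozygous fathers and *Ifitm2* 3.49 ± 0.19 and 3.53 ± 0.10 (SD, n = 4). The 3 genes nearest in pattern to *Ifitm3* were *Cpne1* (mean absolute difference 0.27), *C1qtnf6* (0.28) and 2610035D17Rik (0.28). *Cpne1*, chosen for its likeness to *Ifitm3*, was low in wild-type father replicate 2 and heterozygous father replicate 3, but it moved over a smaller range, from 2.74 to 3.79.

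*Kit*, the receptor tyrosine kinase on which migrating germ cells depend, was the steadiest, with 1.08, 1.16, 1.07 and 1.40 with wild-type fathers and 1.23, 1.23, 1.33 and 1.28 with heterozygous fathers. The embryos of heterozygous fathers lay between the extremes of the other group. The difference was 0.09 with an interval of -0.12 to 0.30, so that a rise of more than 1.23-fold lay outside the interval. The highest embryo was wild-type father replicate 4. It had the lowest primitive erythroid (mean deviation -1.002) and extraembryonic endoderm (-0.32) markers of all embryos, and the highest genes of the inducing signals (0.12). The part of these in the *Kit* value was not tested. Without this embryo the *Kit* difference was 0.17 with an unadjusted p of 0.048 and an adjusted p of 0.9996 (limma). In that fit 1385 of all tested probes had an unadjusted p under 0.05.

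The sex of the embryo, a comparison that is balanced within both slides, gave no call among the germ cell genes either. Of the 8, 0 were called (0.0332% of all tested probes, 11, were), 0 had an unadjusted p under 0.05 (3.28% of all tested probes, 1084, had), and 0 had female and male values that did not overlap (2.56% of all). Males had the higher mean for 3 genes and the lower for 5, where 54.5% of all tested probes were higher in males. The median log2 difference was -0.07 against 0.02 over all tested probes. The difference had the same sign on both slides for 5 of 8 and opposite signs for 3, and the share of all tested probes with the same sign was not computed. With arrays aligned on their medians *Prdm1* and *Kit* turned lower in males, and the median of all tested probes became -0.13.

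The widest sex differences were those of the genes that varied most. *Ifitm3* had 1.66 ± 0.56 in females and 0.93 ± 0.75 in males (SD, n = 4). The male minus female difference was -0.73 with an interval of -1.79 to 0.33, -0.24 on the wild-type fathers' slide, -1.21 on the other, and -0.30 without heterozygous father replicate 3. *Prdm14* had -4.66 ± 0.65 in females and -3.95 ± 0.36 in males (SD, n = 4). Its difference of 0.71 (interval -0.16 to 1.58) was 0.74 on the first slide and 0.68 on the second, but 0.14 without wild-type father replicate 1 and heterozygous father replicate 3. For *Dppa3* the difference was -0.34, the interval ran from -2.80 to 2.12, the 2 slides gave -0.99 and 0.31, and without the same 2 embryos it was -1.02. The other 5 genes differed between the sexes by -0.14 to 0.12, and their intervals lay between -0.36 and 0.35.

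The father difference was also compared between the sexes. At an unadjusted p under 0.05, 0 of 8 genes showed an interaction, beside 2.23% of all tested probes (737). The smallest unadjusted p was that of *Prdm1* (0.0767, adjusted p 0.996 from limma), for which embryos of heterozygous fathers were higher by 0.29 among females and lower by 0.08 among males, with 2 embryos in each cell. *Ifitm3* was higher by 0.79 among females and lower by 0.18 among males, an interaction of -0.97 with a standard error of 0.86.

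Among 12 genes of the inducing signals, all of them detected in every embryo, *Bmp8b*, a ligand made by the extraembryonic ectoderm, was the only one at an unadjusted p under 0.05 between father groups. It had -3.73 ± 0.19 with wild-type and -4.14 ± 0.21 with heterozygous fathers (SD, n = 4). Its adjusted p from limma was 1.00, as for every other list gene named below. *Bmp4*, the principal inducer, differed by 0.15, *Wnt3* by 0.09 and *T* (Brachyury) by -0.002. The median over the 12 was 0.03. In the sex comparison the receptor *Acvr1* was higher in males by 0.18 (unadjusted p = 0.0365), and its second probe by 0.13 (unadjusted p = 0.314).

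Of 16 factors that germ cells share with pluripotent cells, or that mark their surface, 0 had an unadjusted p under 0.05 in the father or the sex comparison, and the medians were -0.01 and 0.02. The core factors *Pou5f1* (-0.02), *Nanog* (-0.14) and *Sox2* (-0.07) and the alkaline phosphatase gene *Alpl* (0.001) had log2 differences close to 0 between the father groups. The spread was wide for *Pou5f1*, with 0.59 and 1.04 as its SD in the wild-type and heterozygous fathers' groups.

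The 9 genes for migration and survival had a median difference of 0.10 between father groups. *Kitl*, which encodes the ligand of KIT, differed by 0.07, and the chemokine *Cxcl12* and its receptor *Cxcr4* by 0.11 and 0.10.

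Of 11 paralogues of the germ cell genes, 6 could be tested. *Ifitm5*, known from bone, had -4.17 ± 0.18 with wild-type and -3.88 ± 0.05 with heterozygous fathers (SD, n = 4). Its difference was 0.29 (unadjusted p = 0.0183, adjusted p = 1.00, limma). *Nanos1*, *Tfap2a* and *Tfap2b* had 0.10, -0.03 and -0.19. *Nanos2*, which takes over in the male germ line later in gestation, was well above background in 2 embryos, and *Ifitm6* and *Tfap2d* in 0.

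Of 15 genes that germ cells use mainly after they reach the gonad, 5 were well above background in every embryo and 9 could be tested. *Dazl* was well above background in 0 embryos, *Tdrd1* in 2, *Piwil2* in 3 and *Asz1* in 1, and 2 probes of *Hormad1* in 0 and 1. *Ddx4* (MVH), an RNA helicase, was detected in every embryo, at -1.35 ± 0.24 with wild-type and -1.42 ± 0.27 with heterozygous fathers (SD, n = 4). Of the 9, *Brdt*, a bromodomain gene of meiotic cells, was the one at an unadjusted p under 0.05, at -2.80 ± 0.31 with wild-type and -2.12 ± 0.38 with heterozygous fathers (SD, n = 4). The list's median difference was 0.001.

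**Figure D4:**
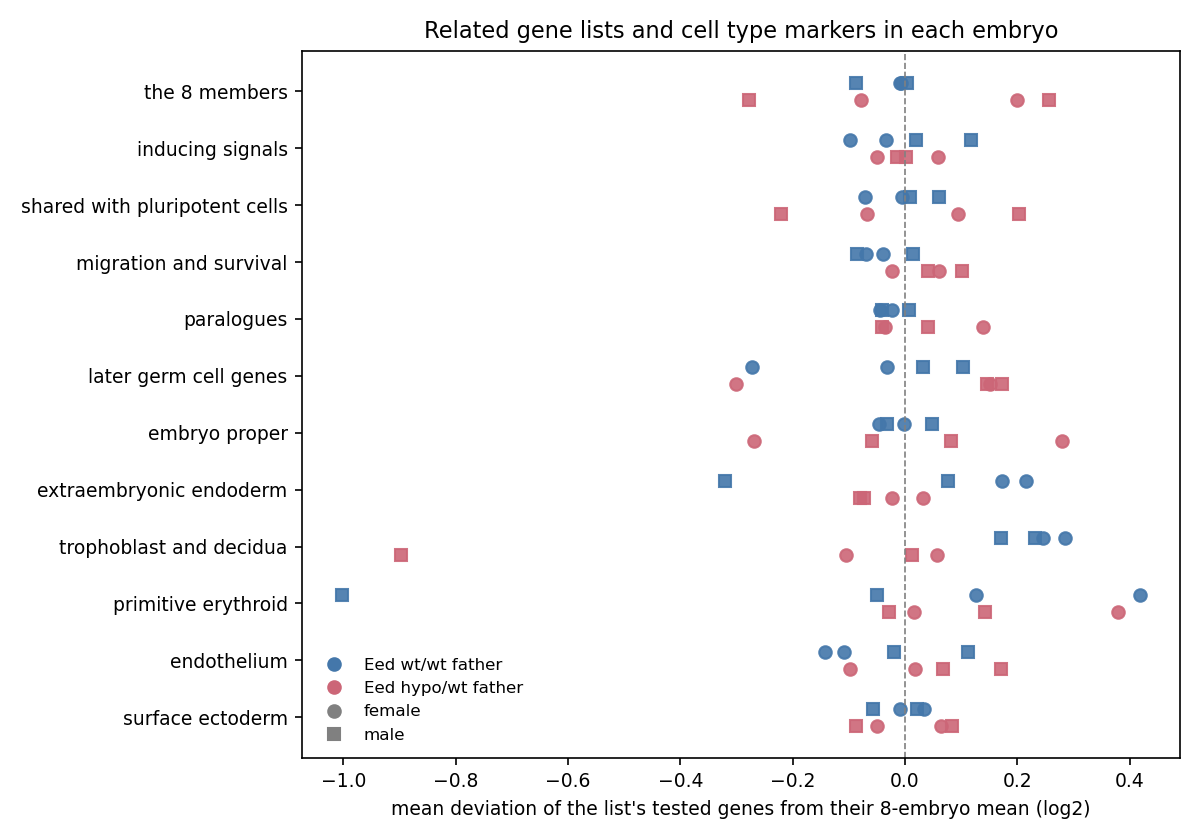
Mean deviation of the tested genes of each list from their mean over the 8 embryos (log2, horizontal axis), 1 symbol per embryo, blue for *Eed* wt/wt and red for *Eed* hypo/wt fathers, circles female and squares male. The germ cell genes range from -0.28 to 0.26 with heterozygous and from -0.09 to 0.004 with wild-type fathers, and the farthest points belong to the primitive erythroid markers in wild-type father replicate 4 and the trophoblast and decidua markers in heterozygous father replicate 3.

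Averaged over the 8 genes, the embryos of heterozygous fathers deviated by -0.28, 0.20, 0.26 and -0.08 from the 8-embryo mean and those of wild-type fathers by -0.01, -0.09, -0.01 and 0.004. The spread with heterozygous fathers (SD 0.25, n = 4) was wider than with wild-type fathers (SD 0.04, n = 4). This order rested on *Dppa3*: with it left out, a choice made after its values were seen, the mean deviations over the other 7 genes had an SD of 0.09 with heterozygous and 0.12 with wild-type fathers (n = 4). The difference in spread was not tested.

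Markers of other cells that a dissected embryo can carry also varied. The 6 tested trophoblast and decidua markers had 3 higher and 3 lower means with heterozygous fathers, with a median difference of -0.01. Of these *Prl8a2*, a decidual prolactin family gene, was lower with heterozygous fathers, at 2.19 ± 0.57 against -0.26 ± 1.58 (SD, n = 4; limma, unadjusted p = 0.0127, adjusted p = 1.00). Its values ran from 1.56 to 2.92 with wild-type fathers and from -2.61, in heterozygous father replicate 3, to 0.72 with heterozygous fathers. The father groups thus did not overlap, as was so for 3.22% of all tested probes. The placental gene *Plac1* differed by 0.53 (limma, unadjusted p = 0.0774). The 7 primitive erythroid genes had a median difference of 0.20 between father groups, with 0 at an unadjusted p under 0.05. Of the embryo's own tissues *Pax3*, of dorsal neural tube and somites, differed by -0.22 between father groups (unadjusted p = 0.0316). Between the sexes, *Kdr* and *Cdh5* of endothelium were higher in males by 0.38 and 0.28 and *Plac1* by 0.59, while *Gata1* of red cells and *Apoa4* of yolk sac endoderm were lower by 0.57 and 0.62, each with a p under 0.05 before and of 1.00 after adjustment (limma). *Plac1* was low only in the 2 females of wild-type fathers, at 0.79 and 0.87 against 1.67 to 1.99 in all other embryos. Its interaction of father and sex had an unadjusted p of 0.00547, and the smallest adjusted p of any tested probe was 0.609 (limma). The second probe of *Kdr* had -0.10 (unadjusted p = 0.453), and the trophoblast and decidua list had a median sex difference of -0.16. The part of these cells in the values of the germ cell genes was not tested.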

How the data were processed

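RNA of 8 embryos was measured with a one-colour array each. The authors read the scanned slides with Agilent Feature Extraction (version 11.0.1.1 per the labels). The deposited intensity of each spot is background-subtracted and spatially detrended, with no scaling between arrays. The study's methods give a percentile shift without naming the percentile, and no test. A deposited table with all samples side by side gives an intensity per spot and served as an alternative, and 0 of its sample columns were left out. Father differences from it were close but not identical, for example 0.2201 for *Nanos3* against 0.2242.

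From these intensities, log2 values were computed and the 75th percentile of each array's non-control spots was subtracted. Outlier spots were left out and the spots of a probe were averaged. A probe entered the fit when its mean lay above the lowest 20% and it was well above background on 4 arrays or more. Comparisons were fitted across all 33093 such probes with limma 3.58.1 (R 4.3.3, with the data.table package, version 1.17.8) and a call needed an adjusted p (Benjamini-Hochberg) under 0.01 with a change of 2-fold or more. The sex comparison had the father's genotype, which is also the slide, as a covariate. The test was checked on simulated data. Sequences and figures were handled with Python 3.11.15, numpy 2.4.6, pandas 2.3.3 and matplotlib 3.10.9. RefSeq symbols, from assembly GRCm38.p6 and used for names, were found for 27235 of 28685 probes with a RefSeq transcript. Each gene's brightest tested probe was used.

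The members, the related gene lists, the cell type markers and the tests were chosen with earlier results of these data known. Named besides the members were list genes with an unadjusted p under 0.05 in the father or sex comparison, defining genes near background, and, for the 2 members that varied most over the embryos, the 3 genes of most similar pattern. Alternatives tried were quantile normalization alone or after normexp (offset 50) of median spot signals, alignment on medians, the table with all samples, other filters on dim probes, sex in or father's genotype out of the fit, the replicate number or the embryo code as a block, array weights, and embryos left out. The number of arrays limits the precision. The single values of 2 genes of the comparison lists are not reported here, although both count in their lists.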

Additional observations from a re-analysis of the deposited data

Results flagged for a closer look

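In groups of 4 embryos, the distance of the highest or lowest embryo from the next one was divided by the range of its group and set against the 95% limit of Dixon's test. Among the 38 groups tested (each gene and each list in each father group), 3 passed, where chance flags about 1 in 20, or 1.9.

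*Nanos3* was low in heterozygous father replicate 1 (share 0.933), at 0.14 against 0.40 to 0.42 in the other embryos of the group. It was 1 of 16 groups tested for the germ cell genes.

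The later germ cell genes were low as a list in heterozygous father replicate 2 (share 0.942), with a mean deviation of -0.30 against 0.15 to 0.17 in the other 3. Most of this came from *Sycp1*, a probe well above background in 5 embryos, at -7.13 in that embryo. Without it, a choice made after its values were seen, the mean deviation was -0.09 against -0.04 to 0.12.

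The trophoblast and decidua markers were low in heterozygous father replicate 3 (share 0.830), with a mean deviation of -0.90 against -0.11 to 0.06. This rested on 2 of 6 genes, *Prl8a2* (-2.61) and *Prl3d1* (-2.99). Over the other 4, left after those values were seen, it was 0.18 against -0.04 to 0.15, the highest of the group. A second probe of *Prl3d1*, well above background on 7 arrays, did not repeat the low value. It had -4.34 in this embryo, against -4.95 to -4.66 in the other embryos of the group.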

How the results depend on the processing

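Under every alternative, 0 of the 8 genes were called between father groups or sexes. The 1 gene at an unadjusted p under 0.05 between father groups (*Nanos3*) stood beside 1455 of all tested probes. It became 0 with arrays aligned on medians (beside 479), with no filter on dim probes (5360) and when the embryo code was a random block (680). With array weights there were 2 (*Nanos3* and *Ifitm3*), beside 3056 of all tested probes. In an alternative chosen after seeing the data, wild-type father replicate 1 and heterozygous father replicate 3 were both left out. There the count was also 2 (*Prdm14* and *Ifitm3*), beside 2341. With 1 embryo left out the count was 0 to 1, beside 970 to 3095 of all tested probes, and in the sex comparison it was also 0 to 1. Under normexp the 1 gene was *Dnd1* in place of *Nanos3*, beside 2596 of all tested probes.

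Some differences changed sign. The father difference of *Prdm14* became -0.0658 with medians aligned, -0.0949 under normexp, -0.44 with array weights and -0.58 without both embryos. With medians aligned, which moved the median of all probes from 0.003 to -0.10 between father groups, from 0.02 to -0.13 between sexes and from 0.06 to -0.69 for the interaction, *Prdm1* became -0.0017 and *Kit* -0.0135 between father groups, *Prdm1* -0.0534 and *Kit* -0.0297 between sexes, and the interaction of *Dnd1* -0.49. Under normexp the sex difference of *Dnd1* was 0.0024. With an embryo left out, father differences ran from -0.35 to 0.25 for *Prdm14*, from -1.18 to 0.31 for *Dppa3* and from -0.0193 to 0.79 for *Ifitm3*, and sex differences from -1.36 to 0.43 for *Dppa3* and from -0.17 to 0.0354 for *Dnd1*. The cause was not tested.

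Over all probes, the 1455 at an unadjusted p under 0.05 between father groups ran from 479 (medians aligned) to 5360 (no filter). The 0 father calls became 1 without wild-type father replicate 1, and 1 without heterozygous father replicate 4. They were also 1 without both wild-type father replicate 1 and heterozygous father replicate 3. The 11 sex calls ran from 0 to 13, and the 0 interaction calls became 4 with medians aligned.

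The replicate numbers are not known to pair embryos. Deviations from the group means correlated at -0.55, -0.05, -0.59 and -0.15 between same-numbered embryos. With the replicate block, 0 genes were at an unadjusted p under 0.05 between father groups and 1 (*Prdm14*) between sexes. The correlation estimated for the embryo code was 0.541 in the father fit and 0.683 in the sex fit. It rests on the embryos of wild-type fathers that share the first part of their code, since no other embryos share one. No mean over a gene's probes was tried, since each of the 8 genes had 1 probe. *Dppa3* has no value where a probe had to be detected in all embryos.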
